A study of Mus musculus with 6 samples.

Results

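The simple epithelial keratins are the intermediate filament proteins of single-layered epithelia such as the lining of the gut. The 6 genes described here, Krt7, Krt8, Krt18, Krt19, Krt20 and Krt23, were taken by gene symbol from a table of 36172 genes, and each has 1 entry in it. They were measured by RNA sequencing in organoids, three-dimensional cultures of epithelial cells, grown from intestinal tumors of C57BL/6 mice labelled 15 to 20 weeks old. All tumors carried the ApcΔ716 truncation with loss of the other allele, so all 3 genotypes share an Apc-mutant background. Each genotype had 2 libraries, made from organoids prepared independently from 2 mice.

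The first genotype was Trp53 +/+, with wild-type p53. In the second, Trp53 flox/flox, the floxed allele carries a stop cassette and is functionally null, so these cells lack p53. In the third, Trp53 R270H/R270H, written p53(M/M) in the labels, tamoxifen and the villin-CreER transgene had removed the cassette, and both alleles express missense p53. Villin drives this Cre in the intestinal epithelium, so the recombined cells are epithelial. The paper does not state tamoxifen treatment for the +/+ or flox/flox mice. Treatment and recombination therefore cannot be told apart from missense p53 in the comparisons of R270H/R270H. The comparisons ask how the RNA of these keratins differs between wild-type, absent and missense p53.

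Keratin filaments are built from pairs of an acidic type I and a basic type II keratin, and a keratin without a partner is degraded. Krt8 is the main type II keratin of simple epithelia, and Krt7 is a second one, typical of ductal and glandular cells. Krt18 is the usual type I partner of Krt8, Krt19 is a small type I keratin found with both type II members, and Krt20 marks differentiated intestinal cells. Krt23 is a type I keratin known as inducible under stress in the liver. Filaments of these proteins attach to desmosomes and hemidesmosomes and give epithelial cells mechanical strength.

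The genes lie in the 2 keratin clusters of the mouse genome (RefSeq, GRCm38.p6). Krt7 is at chr15:101412403-101427806, Krt8 at chr15:101996711-102004342 and Krt18 at chr15:102028216-102032026. Krt18 is the only type I keratin outside the type I cluster, and Krt8 and Krt18 are neighbours whose transcription start sites face each other across 23874 nt. Krt20 is at chr11:99428385-99438153, Krt23 at chr11:99477973-99493120 and Krt19 at chr11:100140810-100145926.

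RefSeq promoters were found for 5 of the 6 members, all but Krt19. The 250 bases upstream of the annotated start are shown for the type II genes Krt7 and Krt8 and for Krt18, which shared 1 order of genotypes, and for Krt23, which had the reverse order. They are written on the strand of the gene and end at the base before the start. Capitals mark GC boxes (GGGCGG on either strand), TATA boxes (TATAAA) and AP-1 elements (TGANTCA) found by a letter search on both strands. The stretches are chr15:101412153-101412402 on the plus strand for Krt7, chr15:102004343-102004592 on the minus strand for Krt8, chr15:102027966-102028215 on the plus strand for Krt18 and chr11:99493121-99493370 on the minus strand for Krt23.
Krt7: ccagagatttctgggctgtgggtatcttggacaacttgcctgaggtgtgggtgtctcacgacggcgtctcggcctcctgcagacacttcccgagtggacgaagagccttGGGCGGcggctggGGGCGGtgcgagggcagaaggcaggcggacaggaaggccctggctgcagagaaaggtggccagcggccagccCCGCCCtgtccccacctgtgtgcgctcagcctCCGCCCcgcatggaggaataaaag
Krt8: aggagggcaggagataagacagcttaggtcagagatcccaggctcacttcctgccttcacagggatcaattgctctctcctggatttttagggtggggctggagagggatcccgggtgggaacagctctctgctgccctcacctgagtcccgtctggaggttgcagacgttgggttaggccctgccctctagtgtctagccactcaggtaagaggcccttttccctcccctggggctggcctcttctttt
Krt18: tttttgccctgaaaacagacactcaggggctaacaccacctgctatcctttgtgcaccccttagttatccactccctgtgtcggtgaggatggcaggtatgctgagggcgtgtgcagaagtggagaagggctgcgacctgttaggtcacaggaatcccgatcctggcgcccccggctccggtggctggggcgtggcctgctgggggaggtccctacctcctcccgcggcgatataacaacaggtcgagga
Krt23: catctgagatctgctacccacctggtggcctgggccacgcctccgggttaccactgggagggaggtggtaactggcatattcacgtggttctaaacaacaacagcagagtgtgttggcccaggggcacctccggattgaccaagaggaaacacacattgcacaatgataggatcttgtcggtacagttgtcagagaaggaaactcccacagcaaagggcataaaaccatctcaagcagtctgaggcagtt

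The Krt7 stretch holds 4 GC boxes, which begin 141, 128, 56 and 24 bases before the start. A GC box is found in 32.7% of 32851 promoters of the same length. The Krt8 stretch has no capitals, and holds 2 GT boxes (CCACCC on either strand, not capitalised), at 160 and 137 bases before the start, a motif found in 28.1% of promoters. No searched motif was found in the Krt18 and Krt23 stretches. The Krt20 stretch, at chr11:99438154-99438403 on the minus strand and not shown, holds a TATA box that begins 29 bases before the start, and a GT box. A TATA box in these letters is found in 12.4% of promoters. The AP-1 element (6.75% of promoters), a TCF/LEF element (CTTTGAT, 3.21%) and the p53 decamer (7.13%) were not found in the 5 stretches. GC content was 66.0% for Krt7, 60.4% for Krt18, 58% for Krt8, 52.8% for Krt23 and 48.0% for Krt20.

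Values are rpkm, read numbers scaled to gene length and to the mapped reads of the library, as deposited, so levels of different genes can be compared per length. No deposited value is below 1 rpkm, which appears to be a floor. Trp53 itself stood at 75.9 and 74.3 rpkm in the +/+ libraries, at 1.73 and 2.48 in flox/flox and at 72.8 and 82.7 in R270H/R270H, low in both libraries labelled null. Depth, estimated from the steps of 1 read in short RNA genes, was 44.3 to 47.4 M reads in the 4 libraries where it could be estimated. The spread between replicates, as the root mean square SD of log2(rpkm + 1) over 10042 genes, was 0.0953 in +/+, 0.458 in flox/flox and 0.126 in R270H/R270H. The flox/flox replicate 1 library stood apart. Against the +/+ mean, its median log2 difference was -0.66 over 850 genes with transcripts over 6000 nt and 0.29 over 2169 genes with transcripts of 1000 to 2000 nt, where flox/flox replicate 2 had -0.04 and 0.03. The summed rpkm of all genes was 484930 in that library, 413612 in flox/flox replicate 2, 412327 and 405869 in +/+, and 377845 and 390118 in R270H/R270H.

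Epithelial markers were present in every library: Epcam ranged from 280 to 399 rpkm, and Cdh1, Vil1, Cdx2 and Cldn7 were all above the floor. The summed level of these 5 genes was 836 to 865 rpkm in +/+, 935 to 1159 in flox/flox and 784 to 837 in R270H/R270H, the same order of genotype means as most of the keratins, and its part in their differences was not tested. In bulk RNA, fewer cells of a type and less RNA per cell cannot be told apart. Of the markers of other cells, the fibroblast genes Col1a2 and Col3a1, the immune genes Ptprc and Cd3e, the endothelial genes Kdr and Pecam1, the basal epithelial genes Krt5 and Trp63 and the mesothelial gene Wt1 stood at the floor in all 6 libraries. Flox/flox replicate 2 alone had Acta2 at 11.5 and Lyz2 at 5.67 rpkm. The summed fibroblast list was 55 to 74 rpkm in +/+, 37 to 76.6 in flox/flox and 290 to 312 in R270H/R270H. Outside flox/flox replicate 2 nearly all of it was Vim, which is described with the other filament genes. In flox/flox replicate 2 Vim was 19.8 of 37 rpkm, and besides Acta2, Col1a1 (2.44) and Pdgfra (1.23) were above the floor. The endothelial list was 10.9 to 11.4 rpkm in +/+ and 3 to 5.30 in the other genotypes, against 3 for its 3 genes at the floor, with the difference in Cdh5. The immune list was 12.9 to 13.2 rpkm in +/+, 5.06 and 18.8 in flox/flox and 5.22 to 5.41 in R270H/R270H. The basal epithelial list, including Krt14, was 3 to 6.95 rpkm throughout. The mesothelial list was 184 to 241 rpkm in +/+, 116 to 194 in flox/flox and 60.1 to 61.4 in R270H/R270H, nearly all of it Msln (179 and 236, 114 and 191, and 57.2 and 55.6 rpkm). Upk3b, the other mesothelial gene above the floor, had another order, with 4.50 and 4.90 rpkm in +/+, 1 and 1.64 in flox/flox and 3.23 and 3.59 in R270H/R270H. The part of these lists in the keratin values was not tested.

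Of the 6 keratins, 5 were abundant. In the +/+ organoids Krt18 stood highest (813 and 791 rpkm), followed by Krt8 (667 and 651), Krt19 (575 and 586), Krt7 (282 and 312) and Krt23 (171 and 179), and no neighbours in this order overlapped. Krt20 was far lower, at 3.09 and 3.99 rpkm. Among the 10042 genes that reached 4 rpkm in some library, Krt18 ranked between 33 and 57 by level across the libraries, and Krt8 between 44 and 71. Krt19 ranked between 32 and 137, Krt7 between 67 and 210, Krt23 between 222 and 901, and Krt20 between 7878 and 9520. All 6 passed that filter, Krt20 by a single library. In flox/flox the top of the order was less clear, since the values of Krt19 overlapped those of both Krt18 and Krt8. In R270H/R270H the order was that of +/+.

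**Figure D1:**
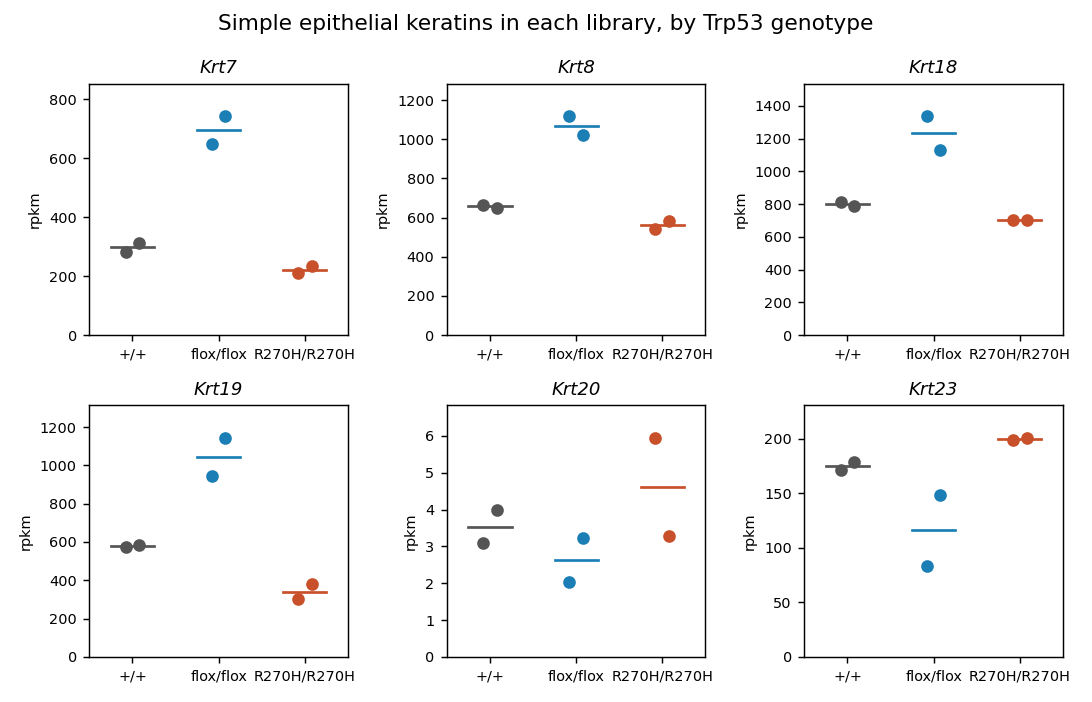
Level in rpkm (vertical axes, from 0, each with its own scale) of the 6 keratins in the 2 libraries of each Trp53 genotype. Points are libraries and lines are means. Krt7, Krt8, Krt18 and Krt19 are highest in both flox/flox libraries and lowest in both R270H/R270H libraries, Krt23 has the reverse order, and the Krt20 points of +/+ overlap those of both other genotypes.

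The organoids without p53 had the most RNA of the type II keratins. Krt7 stood at 282 and 312 rpkm in +/+, 646 and 741 in flox/flox and 211 and 233 in R270H/R270H. The genotypes did not overlap, and the mean in flox/flox was 2.33 times that in +/+ and 3.13 times that in R270H/R270H. Krt8 stood at 667 and 651 rpkm in +/+, 1117 and 1021 in flox/flox and 539 and 584 in R270H/R270H. Its genotypes did not overlap either, with a mean in flox/flox 1.62 times that in +/+ and 1.90 times that in R270H/R270H.

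Of the type I members, Krt18 and Krt19 had the same order. Krt18, the partner of Krt8, stood at 813 and 791 rpkm in +/+, 1336 and 1130 in flox/flox and 702 and 706 in R270H/R270H. Both flox/flox values were above all others, and both R270H/R270H values were below all others. Krt19 stood at 575 and 586 rpkm in +/+, 946 and 1142 in flox/flox and 301 and 379 in R270H/R270H. Its mean in R270H/R270H was 0.586 times that in +/+, the lowest such ratio of the 6 members, and 0.326 times that in flox/flox. The order flox/flox above +/+ above R270H/R270H, in both libraries of each, was thus seen for 4 of the 6 members, and for 791 (7.88%) of the genes tested.

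The remaining type I members were not highest in flox/flox. Krt23 stood at 171 and 179 rpkm in +/+, 83.8 and 148 in flox/flox and 200 and 201 in R270H/R270H. The genotypes did not overlap, but the flox/flox libraries differed 1.77-fold between themselves. Its order, R270H/R270H above +/+ above flox/flox, was seen for 1225 (12.2%) of the genes tested. Krt20 stood at 3.09 and 3.99 rpkm in +/+, 2.03 and 3.23 in flox/flox and 5.94 and 3.28 in R270H/R270H. Only R270H/R270H and flox/flox did not overlap, and they were separated by less than 0.1 rpkm at their nearest. Krt20 passed the filter only through R270H/R270H replicate 1, and its values rest on about 287 to 506 reads in each of the 4 libraries whose depth could be estimated.

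Taken by pairs of genotypes, the libraries did not overlap for 5 members between flox/flox and +/+, where 4 were higher (30.6% of all genes tested) and Krt23 was lower (33.9%). Between R270H/R270H and +/+ there were 4 lower (37.6% of all genes) and Krt23 higher (44.2%). Between R270H/R270H and flox/flox there were 4 lower (31.2% of all genes), and Krt23 and Krt20 were higher (36.8%), Krt20 being among the genes tested only through its R270H/R270H replicate 1 value. With 2 libraries a genotype such separation was common in the whole table.

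The 6 genes were also set against each other within each library, which removes any factor common to them. Their summed level was 2512 and 2523 rpkm in +/+, 4131 and 4186 in flox/flox and 1959 and 2105 in R270H/R270H. The ratio of type I to type II RNA was 1.65 and 1.62 in +/+, 1.34 and 1.38 in flox/flox and 1.61 and 1.58 in R270H/R270H. Type I RNA exceeded type II RNA in every library, and the excess was smaller in both flox/flox libraries. The Krt18 to Krt8 ratio changed least, at 1.22 and 1.21 in +/+, 1.20 and 1.11 in flox/flox and 1.30 and 1.21 in R270H/R270H. The values of +/+ and R270H/R270H overlapped, and the flox/flox values lay below all of them. The Krt7 to Krt8 ratio was 0.424 and 0.479 in +/+, 0.579 and 0.726 in flox/flox and 0.391 and 0.399 in R270H/R270H, without overlap. The Krt19 to Krt8 ratio was 0.863 and 0.899 in +/+, 0.847 and 1.12 in flox/flox and 0.558 and 0.649 in R270H/R270H. For this ratio R270H/R270H lay below all other libraries, while +/+ and flox/flox overlapped.

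As shares of the summed rpkm, Krt18 made up 27.0 to 35.8% and Krt8 24.4 to 27.7% of the keratin RNA across the libraries. The share of Krt19 was 22.9 and 23.2% in +/+, 22.9 and 27.3% in flox/flox and 15.4 and 18.0% in R270H/R270H. The share of Krt7 was 11.2 and 12.4% in +/+, 15.6 and 17.7% in flox/flox and 10.8 and 11.1% in R270H/R270H. Krt23 made up 6.83 and 7.10% in +/+, 2.03 and 3.54% in flox/flox and 10.2 and 9.54% in R270H/R270H. The p53-null organoids therefore held relatively more Krt7 and less Krt23 in their keratin RNA, and the R270H/R270H organoids less Krt19 and more Krt23. Krt20 stayed between 0.0491 and 0.303%.

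**Figure D2:**
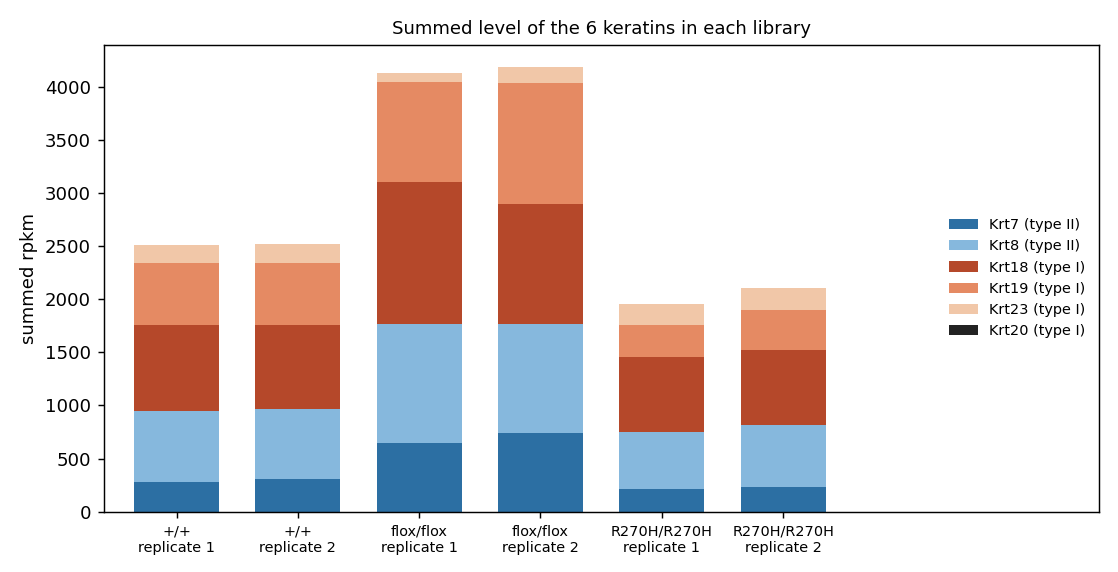
Summed level in rpkm (vertical axis, from 0) of the 6 keratins in each library, stacked by gene, with type II members in blue, Krt20 in black and the other type I members in red tones. The flox/flox bars reach 4131 and 4186 rpkm, against 2512 and 2523 in +/+ and 1959 and 2105 in R270H/R270H. Krt20 is too low to be seen.

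Comparing the p53-null with the wild-type organoids asks what goes with absence of p53. Differences are in log2(rpkm + 1), which understates changes of low genes, and were fitted with limma over all 10042 genes and all 6 libraries, two-sided and adjusted by Benjamini-Hochberg. At an adjusted p under 0.05, 3 of the 6 members were higher in flox/flox and 0 were lower, where 440 (4.38%) of all genes tested were higher and 693 (6.9%) lower. By limma with no adjustment 4 were higher and 0 lower at p under 0.05, where 16.5% of all genes were higher and 18.3% lower. Krt7 rose by 1.22 (SE 0.13, adjusted p = 0.0132). Krt19 rose by 0.84 (SE 0.17, adjusted p = 0.0411) and Krt8 by 0.70 (SE 0.12, adjusted p = 0.0329). Krt18 just missed the threshold, with a difference of 0.61 and a 95% confidence interval of 0.26 to 0.96 (adjusted p = 0.0510). The interval for Krt23 was -1.33 to 0.04 around -0.65 (adjusted p = 0.158), and that for Krt20 was -1.10 to 0.43 around -0.34 (adjusted p = 0.453). The calls rested on a spread shared by all genotypes, although replicates differed most in flox/flox. With weights for each genotype 0 members were called, and 150 of all genes. With only the 2 genotypes compared 0 members were called, and 47 of all genes. The calls also depended on single libraries, for the keratins as for the whole table. Without either +/+ library or either R270H/R270H library 0 members were called, and 8 to 37 of all 10042 genes. Without flox/flox replicate 1 or 2 there were 5 members, Krt18 then among those higher and Krt23 lower, when 40.4% and 68.5% of all genes were called. Without the library that stood apart, flox/flox replicate 1, the differences were 1.32 for Krt7, 0.98 for Krt19, 0.63 for Krt8, 0.49 for Krt18 and -0.24 for Krt23.

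Comparing R270H/R270H with +/+ asks what goes with missense in place of wild-type p53. Only Krt19 was called, lower in R270H/R270H by a log2 difference of -0.78 (SE 0.17, adjusted p = 0.0469), where 639 (6.36%) of all genes tested were lower and 588 (5.86%) higher. Krt7 had a difference of -0.42, with a 95% confidence interval of -0.76 to -0.08 (adjusted p = 0.103). The intervals of Krt8 (-0.55 to 0.08) and Krt18 (-0.54 to 0.16) included 0, around differences of -0.23 and -0.19. Krt23 differed by 0.19 (interval -0.49 to 0.87) and Krt20 by 0.27 (interval -0.50 to 1.04). Krt20 was among the genes tested only through R270H/R270H replicate 1, so its difference is given as a description. Without that library it was -0.08. Over 17 alternatives the Krt19 difference ranged from -0.94 to -0.55, and 9 of them ended its call, with adjusted p from 0.000504 to 0.322 in all. The 9 include leaving out either +/+ or either R270H/R270H library, when 0 to 113 of all genes were called. Without either flox/flox library, whose spread was the widest, 4 members were called in this comparison: Krt7, Krt8 and Krt19 lower and Krt23 higher, when 57.1% of all genes were called in either case.

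The R270H/R270H and flox/flox organoids lack wild-type p53 alike and were set against each other to compare missense with absent p53. Of the 6 members, 4 were lower in R270H/R270H and 0 were higher, where 1107 (11.0%) of all genes tested were lower and 1362 (13.6%) higher, 24.6% in all. Krt7, Krt8 and Krt19 were called in flox/flox above both other genotypes, as were 283 (2.82%) of all genes. At an unadjusted p under 0.05, limma also had 1 member higher, Krt23, as were 23.4% of all genes. The log2 difference was -1.64 for Krt7 (SE 0.13, adjusted p = 0.00355) and -1.62 for Krt19 (SE 0.17, adjusted p = 0.00657). It was -0.93 for Krt8 (SE 0.12, adjusted p = 0.0112) and -0.80 for Krt18 (SE 0.14, adjusted p = 0.0192). Krt23 differed the other way, by 0.84 with an interval of 0.15 to 1.52, which did not pass the threshold after adjustment (adjusted p = 0.0758). Krt20 differed by 0.61 (interval -0.16 to 1.37). It was among the genes tested only through R270H/R270H replicate 1, so this difference is given as a description. This comparison shares the flox/flox libraries with the first and the R270H/R270H libraries with the second, so the 3 sets of values are not independent. Without either +/+ library 2 members were called (3.74% of all genes), without R270H/R270H replicate 1 there were 0 (1.65%) and without replicate 2 there was 1 (2.67%). Without flox/flox replicate 1 or 2 there were 5, with Krt23 higher, when 53% and 72.3% of all genes were called.

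**Figure D3:**
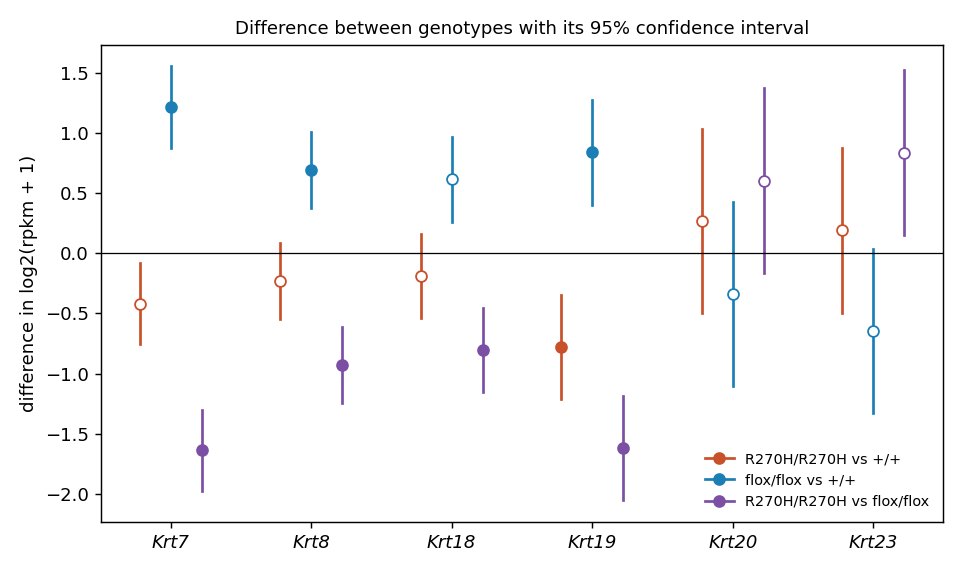
Difference between genotypes in log2(rpkm + 1), on the vertical axis, with 95% confidence intervals from limma as bars, for the 6 keratins and the 3 comparisons. Filled points passed an adjusted p under 0.05. The R270H/R270H minus flox/flox differences of Krt7 (-1.64) and Krt19 (-1.62) are the farthest from 0.

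Other genes with the level, transcript length and GC content of Krt8, Krt18 and Krt19 also differed between the libraries. Against the +/+ mean, the 249 other genes with a mean of at least 200 rpkm had median log2 differences of 0.49 and 0.06 in the flox/flox libraries and of -0.21 and -0.13 in the R270H/R270H libraries. The annotated transcripts have 1958 nt and 57.1% GC for Krt8, 1437 nt and 56.4% GC for Krt18 and 1576 nt and 57.6% GC for Krt19. The 11 other genes with at least 200 rpkm, 1000 to 2000 nt and 55 to 60% GC had medians of 0.67 and 0.30 in flox/flox and of -0.38 and -0.16 in R270H/R270H. In flox/flox replicate 1 the differences of Krt8 (0.76), Krt18 (0.74) and Krt19 (0.70) were near that median of 0.67, while Krt7 was at 1.12. In flox/flox replicate 2 they were 0.63, 0.49 and 0.98, and Krt7 was at 1.32, above the median of 0.30. In R270H/R270H, Krt8 (-0.29 and -0.17) and Krt18 (-0.19 and -0.18) were again near these medians, and Krt19 (-0.94 and -0.61) was below them. Krt23 ran against these medians, at -1.06 and -0.24 in the flox/flox libraries and 0.19 in both R270H/R270H libraries. Krt7 (4094 nt, 52.3% GC) and Krt23 (51.4% GC) lie outside the limits of the class of 11 genes. Krt23 also stood below 200 rpkm in the +/+ and flox/flox libraries. Their distances from the median of the 11 genes therefore do not compare them with genes of like length and GC content.

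When a quadratic trend in GC content, transcript length and mean level was taken out of each library, the Krt7 difference between flox/flox and +/+ was 1.04 (adjusted p = 0.00941) and stayed called, as were 20.1% of the genes so fitted. The other members were not called in that comparison, with 0.34 for Krt19 (adjusted p = 0.320), 0.23 for Krt8 (adjusted p = 0.130) and 0.13 for Krt18 (adjusted p = 0.373). Between R270H/R270H and flox/flox, Krt7 (-1.42, adjusted p = 0.00373) and Krt19 (-0.89, adjusted p = 0.0466) were called, and Krt8 (-0.26) and Krt18 (-0.10) were not, with 26.5% of genes called. Between R270H/R270H and +/+, Krt19 had -0.55 (adjusted p = 0.147) and Krt18 had 0.03, with 23.5% called. With GC content and length alone taken out, 3 members were called in flox/flox against +/+ (Krt7, Krt8 and Krt18, not Krt19 with adjusted p = 0.0631), where 20.3% of genes were called, and 4 in R270H/R270H against flox/flox, where 27.5% were. Between R270H/R270H and +/+, Krt7 was then called lower (-0.46, adjusted p = 0.0263) and Krt19 was not (-0.64, adjusted p = 0.0544), with 22.5% of genes called. These corrections were chosen after seeing the data and used 9228 (91.9%) of the genes tested. They took Krt7 as a transcript of 4094 nt. The annotation behind the rpkm is not given, so this may not be the transcript counted. Whether Krt7 stays called with another length was not tested.

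**Figure D4:**
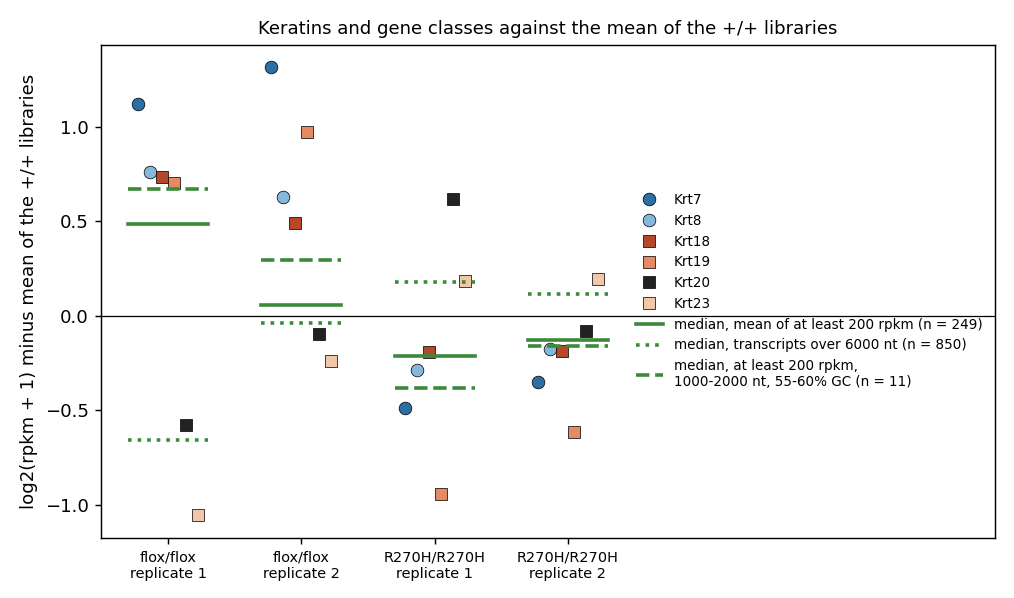
Log2(rpkm + 1) in each flox/flox and R270H/R270H library minus the mean of the +/+ libraries (vertical axis), for the 6 keratins (points) and as medians of 3 classes of other genes (green lines). In flox/flox replicate 1 the 11 genes most like Krt8, Krt18 and Krt19 in level, length and GC have a median of 0.67, near those keratins, and Krt7 lies above at 1.12. Krt7 and Krt23 lie outside the limits of that class.

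The place of the genes on the chromosome was compared with their values. The median log2 difference from the +/+ mean in each library was between -0.05 and 0.09 over the 834 tested genes of chromosome 11 and the 400 of chromosome 15. The nearest tested gene before Krt7 is Krt80, a type II keratin gene 42241 nt away. Krt80 stood at 1.18 and 1.40 rpkm in +/+, 11.5 and 9.71 in flox/flox and 1.72 and 1.75 in R270H/R270H. Both flox/flox values lay above all others, and the other 4 lay close to the floor. Krt80 was among the genes tested only through its flox/flox values, so its log2 differences, 2.34 for flox/flox against +/+ and -2.08 for R270H/R270H against flox/flox, are given as a description. The next tested gene after Krt7 is 4732456N10Rik, 124550 nt away, with means of 1, 3.98 and 4.23 rpkm in +/+, flox/flox and R270H/R270H, and no call.

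Around the Krt8 and Krt18 pair, the nearest other tested genes were Krt4, 71976 nt before Krt8, and Eif4b, 41747 nt after Krt18. Neither was called in any comparison. Krt4, a type II keratin of stratified inner linings and the most abundant of the other keratins, stood at 66.8 and 91.3 rpkm in +/+, 202 and 89.7 in flox/flox and 62.4 and 70.7 in R270H/R270H, and its high value was in the library that stood apart. Eif4b, a translation initiation factor, had means of 280, 219 and 236 rpkm in +/+, flox/flox and R270H/R270H. On chromosome 11, Krt20 and Krt23 are 39820 nt apart and neighbours among the tested genes. The nearest on their other sides were Smarce1, a chromatin remodelling subunit, and Krt19, and the nearest after Krt19 was Krt14. Smarce1 and Krt14 were not called, and Krt14 was at most 4.95 rpkm.

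The other keratin genes were taken by their Krt symbols, so a keratin gene listed under another name would not be counted. Of 44 such genes in the table, 36 stood at the floor in all 6 libraries, among them the epidermal genes Krt1, Krt2 and Krt5. Krt10, Krt14, Krt17, Krt39, Krt4, Krt6a, Krt79 and Krt80 had a value above it in at least 1 library. Of these 44, only Krt4, Krt14 and Krt80 passed the filter, Krt80 through its flox/flox values, and Krt4 and Krt14 were not called. Summed over all 44, with the floor values included, their level was 108 to 258 rpkm across the libraries, against 1959 to 4186 for the 6 simple epithelial genes.

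Keratin filaments end at desmosomes and hemidesmosomes, and 17 of the 21 listed genes for these junctions and their linkers were tested. Between flox/flox and +/+, limma called 0 higher and 0 lower (3 and 5 at an unadjusted p under 0.05, against 16.5% and 18.3% of all genes), with a median log2 difference of -0.21 against -0.02 over all genes. The 5 include Dsg3 and Eppk1, which were tested only through +/+ values (4.52 rpkm for Dsg3, 5.73 and 5.79 for Eppk1). Evpl, not among the 5, was tested only through flox/flox replicate 2 (4.27 rpkm). The count of 5 and the medians of this list, which hold these genes, are therefore given as a description. Against +/+, limma called 2 lower and 0 higher in R270H/R270H, where 6.36% of all genes tested were lower and 5.86% higher. Itgb4, the integrin chain of hemidesmosomes that links to keratins through plectin, had a difference of -1.30 (adjusted p = 0.0353). Its means were 34.0, 19.3 and 13.2 rpkm in +/+, flox/flox and R270H/R270H. Perp, a desmosomal membrane protein known as a p53 target, had a difference of -0.73 (adjusted p = 0.0299). Its means were 87.7, 62.0 and 52.4 rpkm in the same order. Itgb4 and Perp were also lower in flox/flox than in +/+ (-0.83 and -0.49), without a call. Neither was called between R270H/R270H and flox/flox. The median for R270H/R270H against +/+ was -0.26 against 0.03 over all genes. In R270H/R270H against flox/flox, limma called 2 higher and 2 lower, where 13.6% of all genes tested were higher and 11.0% lower. The desmosomal cadherins Dsg2 (0.78) and Dsc2 (0.47) were higher. The plakophilins Pkp3 (-0.84) and Pkp2 (-0.43), which link the cadherins to keratins, were lower. The median was -0.15 against 0.03 over all genes.

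Of 15 listed genes for other intermediate filament proteins, 4 were tested. Vim, the mesenchymal filament protein vimentin, stood at 69 and 50.0 rpkm in +/+, 71.6 and 19.8 in flox/flox and 306 and 284 in R270H/R270H. It was higher in R270H/R270H than in flox/flox by 2.93 (adjusted p = 0.0261), and the difference of 2.31 from +/+ did not pass the threshold (adjusted p = 0.0622). Lmna, a nuclear lamin, was lower in R270H/R270H, with means of 10.5 rpkm against 33.6 in +/+ (-1.61, adjusted p = 0.0235) and 35.3 in flox/flox (-1.64, adjusted p = 0.0157). Lmnb1, a lamin abundant in dividing cells, was higher than in +/+ both in R270H/R270H (0.64) and in flox/flox (0.89). Lmnb2, another lamin, had means of 18.3, 28.3 and 19.1 rpkm in +/+, flox/flox and R270H/R270H and was not called.

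Of 12 listed genes for proteins that bind, modify or cleave keratins, 11 were tested. In flox/flox against +/+, Sfn, a 14-3-3 protein and known p53 target, was higher (0.90, adjusted p = 0.0274). In R270H/R270H against +/+, Mapk14, a stress kinase that phosphorylates keratins, and Pnn, a keratin-binding nuclear and desmosomal protein, were both higher by 0.50. In R270H/R270H against flox/flox, Casp6 (0.61) and Pnn (0.55) were higher, and Sfn (-0.55) and the chaperone Hspa8 (-0.57) were lower. Hspa8 was the most abundant of the list, with means of 1182, 1305 and 878 rpkm in +/+, flox/flox and R270H/R270H. The list medians were 0.21, 0.31 and -0.05 for flox/flox against +/+, R270H/R270H against +/+ and R270H/R270H against flox/flox.

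Because Krt20 rises as intestinal cells differentiate, 12 enterocyte genes were listed beside it, and 7 were tested. In flox/flox against +/+, Ceacam1, an adhesion molecule and the most abundant in flox/flox, was higher (0.83, adjusted p = 0.0134). Alpi, intestinal alkaline phosphatase, stood at 4.86 and 10.7 rpkm in +/+, 8.80 and 4.35 in R270H/R270H and at the floor in both flox/flox libraries. Fabp1, a fatty acid binding protein, stood at 3.81 and 4.77, 8.87 and 4.39, and 1 and 1.20 rpkm in the same order. Alpi and Fabp1 were among the genes tested only through their +/+ and R270H/R270H values. Their differences from flox/flox are therefore given as a description. Between R270H/R270H and +/+, limma called 0 of the 7 in either direction, and 1, Ceacam1, had an unadjusted p under 0.05, as did 16.4% of all genes in the higher and 15.5% in the lower direction. Higher in R270H/R270H than in flox/flox was the glucose transporter Slc5a1 (1.00), and Ceacam1 (-0.42) was lower. Alpi (1.86) and Fabp1 (1.80) also had higher values in R270H/R270H, as a description only. The medians over the 7 genes were -1.15, -0.15 and 1.00 in these 3 comparisons, against -0.02, 0.03 and 0.03 over all genes tested. They include Alpi and Fabp1, which entered only through their +/+ and R270H/R270H values, so the medians too are a description only. Krt20 had its lowest value, 2.03 rpkm, in flox/flox replicate 1, the library that stood apart, without a call. Its 3.23 rpkm in flox/flox replicate 2 lay between the +/+ values of 3.09 and 3.99.

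For each member, the 3 tested genes with the most similar profile over the 6 libraries were named by Pearson correlation of log2(rpkm + 1), as a description with no test, since all points share the same libraries. For Krt7 they were Cchcr1, Ccm2 and Rpl19 (r from 0.994 to 0.995), and for Krt8 Eno1, 1810043H04Rik and Snrpa (r from 0.997 to 0.998). For Krt18 they were 2010317E24Rik, Mrpl4 and Plekhj1 (r from 0.997 to 0.999), and for Krt19 Inppl1, Csrp2 and Ppp1r13l (r from 0.995 to 0.997). Eno1, a glycolytic enzyme, stood at 343 and 329 rpkm in +/+, 651 and 574 in flox/flox and 279 and 305 in R270H/R270H, close to the proportions of Krt8. For Krt23 they were Ncoa1, Chd6 and Rcan3 (r from 0.998 to 0.999), which like Krt23 were lowest in flox/flox replicate 1. For Krt20 they were Cebpz, Copb1 and Cdk13 (r from 0.953 to 0.956). Among the members, Krt8 and Krt18 had r = 0.991, Krt7 and Krt8 had r = 0.981, Krt7 and Krt19 had r = 0.964, and Krt23 had r = -0.93 with Krt18. Each of these values was taken over 6 libraries in 3 genotypes, so they mostly restate the genotype differences.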

How the data were processed

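Poly(A) RNA of 6 organoid preparations was sequenced from stranded TruSeq libraries. The deposited rpkm values were made by the authors with StrandNGS, from reads aligned to mm10. Its version, gene annotation and treatment of reads shared between keratin genes are not given in the sources used here, and the table holds no counts. No value is below 1, which limits low genes from below. Groups came from the sample titles, with 2 libraries each, from different mice.

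Genes that reached 4 rpkm in some library (10042 of 36172) were kept. Log2(rpkm + 1) was fitted with limma 3.58.1 (lmFit, eBayes with trend) in R 4.3.3, over all 6 libraries, with genotype as the only term, and the two-sided p-values were adjusted by Benjamini-Hochberg over all genes, with calls at 0.05. An exact permutation test of 2 against 2 libraries cannot go below p = 0.333 and was not used. The code was tested on simulated data. Positions came from RefSeq by gene identifier, and transcript lengths and GC content from the GENCODE M21 transcript numbered 201 of each symbol, which for Krt7 gives 4094 nt. Python 3.11.15, numpy 2.4.6, pandas 2.3.3 and matplotlib 3.10.9 were used. The depth gives no error for single values, so errors rest on the replicate spread.

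Members, gene lists and tests were chosen with earlier results of these data known. Genes of a list are named when called in a comparison, at most the 4 largest per list and comparison, with the most abundant of the list. Not every gene named by this rule is reported here. Nearest tested neighbours and the 3 most similar profiles are also named. Alternatives were a pseudocount of 0.1, filters of 2 rpkm or none, median-of-ratios scaling, a replicate block, weights for each genotype, no trend, only the 2 genotypes compared and leaving out each library. Scaling by the summed rpkm and corrections for GC content, length and level were added after seeing the data.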

Additional observations from a re-analysis of the deposited data

How the results depend on the processing

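Over 17 alternatives for each of the 6 members in 3 comparisons, 306 in all, 227 kept direction and side of the threshold, 55 lost a call, 22 gained one and 2 turned the direction: Krt18 in R270H/R270H against +/+ was 0.0305 after the GC content, length and level correction, and Krt20 was -0.0788 without R270H/R270H replicate 1, within a range of -0.0788 to 0.620 when single libraries were left out. The number of members called in R270H/R270H against +/+ was 1 as reported. It was 0 without a filter, with the replicate block, with rpkm divided by its sum and with the GC content, length and level correction, 4 with weights for each genotype and with only the 2 genotypes compared, and between 0 and 4 when single libraries were left out. In flox/flox against +/+ it was 3 as reported. It was 0 without a filter, with weights and with only the 2 genotypes, and 4 with no trend. It was 1 with the replicate block and with the GC content, length and level correction, and it changed when single libraries were left out. In R270H/R270H against flox/flox it was 4 as reported. It was 2 with weights, with only the 2 genotypes and with the GC content, length and level correction, 3 with the replicate block, and between 0 and 5 when single libraries were left out. A lone library left in a genotype was assumed to vary like the others.

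Genes called over the whole table, in the order of R270H/R270H against +/+, flox/flox against +/+ and R270H/R270H against flox/flox, were 1227, 1133 and 2469 as reported. They were 427, 73 and 750 without a filter, 550, 280 and 1156 with the replicate block, 5987, 150 and 534 with weights, and 5721, 47 and 378 with only the 2 genotypes. GC content and length correction gave 2074, 1877 and 2538, and with level 2170, 1858 and 2450, of 9228 genes. Leaving out single libraries gave 0 to 5732, 8 to 6875 and 166 to 7259. Dividing rpkm by its sum moved the median difference of all genes by 0.08, -0.12 and 0.20, to 0.11, -0.14 and 0.23, and gave 662 higher and 441 lower, 409 and 758, and 1961 and 741, against 588 and 639, 440 and 693, and 1362 and 1107 as reported.

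Replicate numbers did not pair the libraries. They name different mice, and the correlation of same-numbered deviations was 0.12 between +/+ and flox/flox, -0.29 between +/+ and R270H/R270H and -0.20 between flox/flox and R270H/R270H. With 2 libraries a genotype and a floor of 1 rpkm, small differences and low genes such as Krt20 were at the limit of what could be measured.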
